A study of Mus musculus with 17 samples.

Results

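The Bcl-2 family members analysed here were 10 genes that set whether a lymphocyte survives or dies through its mitochondria: *Bcl2*, *Bcl2l1*, *Mcl1*, *Bcl2l11*, *Bbc3*, *Pmaip1*, *Bid*, *Bad*, *Bax* and *Bak1*. They were chosen by symbol, by a rule that used no measured value, though with earlier results of these data known, from 21848 genes in the expression matrices. All 10 were found and all 10 passed the filter on low counts. Their unique molecular identifier (UMI) counts were summed per mouse in germinal centre (GC) B cells, sequenced one cell at a time from the 5′ end of the transcript.

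Apoptosis by the mitochondrial route is decided by 3 kinds of family member. BCL-2 (*Bcl2*), BCL-XL (*Bcl2l1*) and MCL-1 (*Mcl1*) keep cells alive by holding the pore-forming effectors BAX (*Bax*) and BAK (*Bak1*) in check. BH3-only proteins start death by binding the survival proteins or the effectors: BIM (*Bcl2l11*), PUMA (*Bbc3*), NOXA (*Pmaip1*), BID (*Bid*) and BAD (*Bad*). GC B cells are known for dying readily unless they receive survival signals, for keeping *Bcl2* low under the repressor BCL6, and for needing *Mcl1*. Many of these proteins are controlled after translation, which transcript counts do not show.

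The study asked what happens when GC B cells are pushed through several division cycles in the dark zone (DZ) without going back to the light zone. B1-8hi B cells, specific for the hapten NP, came from CD45.2/2 donors that were *Igh* B1-8hi/+ and also carried Vav-tTA and *Col1a1* tetO-H2B-mCherry/WT, and were transferred into ovalbumin-primed CD45.1/1 recipients. A small fraction of the transferred cells carried DEC-205 and the rest were *Ly75*-/-, and recipients were immunized with NP coupled to ovalbumin (OVA). Anti-DEC-OVA, an antibody that delivers OVA to DEC-205-bearing cells and so forces help from T follicular helper cells on them, was given at 7 days post-immunization (dpi). Day7 was taken as 0 h, Day9 and Day10 as 48 h and 72 h without treatment, and Day9DEC and Day10DEC as 48 h and 72 h after treatment. The mice were of both sexes and 5 to 12 weeks old. GC B cells were gated as B220+ TCRb- CD38- Fas+, a gate meant to leave out T cells and naive or memory B cells. The study describes the time course cells, whose mutations and expression it profiled, as DEC-205+ GC B cells. In the reporter experiment, GC B cells with *Rosa26* DHB-tdTomato, alone or with H2B-GFP, were sorted 72 h after anti-DEC-OVA on images of the reporter, which leaves the nucleus when the kinase CDK2 is active. C stands for the cytoplasmic reporter (CDK2-high) and N for the nuclear reporter (CDK2-low). Treated cells are a model of strong, synchronous help, and only the DEC-205-bearing cells receive it. Every mouse of an experiment shared 1 library, told apart by hashtag antibodies, and C and N were 1 library each, so that population and library cannot be told apart in the sort.

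The time course held 39 mice and 23698 cells, 25 mice in a larger experiment and 14 in a smaller one. The groups held 6, 4, 6, 5 and 4 mice (Day7, Day9, Day9DEC, Day10, Day10DEC) in the larger experiment and 3, 2, 3, 3 and 3 in the smaller one. Each mouse gave 292 to 1045 cells and 1984426 to 13373185 UMIs. The sort held 7 mice with both populations, 7448 C and 4385 N cells, and 3988733 to 20394909 UMIs per mouse and population. Its hashtags were listed for 9 mice, of which 2 had no cells assigned, and cells with 1 hashtag that was not listed were not assigned to a mouse. Between 5 and 43 cell barcodes were shared by a pair of libraries. The GC B cell markers *Bcl6*, *Fas*, *Mybl1*, *S1pr2*, *Gcsam*, *Rgs13*, *Cd79a* and *Ms4a1* were above 0 in every mouse. Among T cell markers, *Cd3d*, *Cd3e*, *Cd3g*, *Cd4* and *Cd8a* had medians under 1 CPM. Levels of several members differed between the experiments: *Bax* was 111 to 149 CPM per mouse in the larger one and 61.5 to 78.6 in the smaller one. Each level below is therefore given within its experiment and each test held a term for the experiment. Levels are normalised CPM, the UMI counts of a mouse scaled to a common library size with TMM factors. They are called a share of the RNA below, though TMM scaling makes them relative to the bulk of genes. They are thus not plain shares. A lower CPM in a sum over cells can come from fewer cells with the transcript, from less of it per cell or from more other RNA. CPM of a sum cannot tell these apart.

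Depth differed widely between members. Over the time course, *Mcl1* had 69434 UMIs, *Bax* 25282, *Bid* 21937, *Bak1* 13358, *Bad* 11775 and *Bcl2l11* 8214. *Bcl2l1* had 2296 UMIs, *Pmaip1* 2100, *Bbc3* 1722 and *Bcl2* only 895, between 3 and 78 per mouse. Values of *Bcl2* in a single mouse were thus imprecise.

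Positions are those of the GENCODE annotation of GRCm39. The survival genes are *Bcl2* at chr1:106465908-106642060 on the minus strand, *Bcl2l1* at chr2:152622582-152673655 on the minus strand and *Mcl1* at chr3:95566026-95570487 on the plus strand. Of the BH3-only genes, *Bcl2l11* is at chr2:127967958-128004476 (plus), *Bbc3* at chr7:16042318-16052130 (plus), *Bid* at chr6:120862525-120894171 (minus) and *Bad* at chr19:6918902-6929280 (plus). The effectors are *Bax* at chr7:45111015-45116325 (minus) and *Bak1* at chr17:27238784-27247983 (minus). Genes on the same strand overlap *Bcl2* (Gm37053, Mir3473f), *Bcl2l11* (Gm74510), *Bax* (Gm45808) and *Bid* (Gm44260), and reads in the shared part may have been counted for either gene or for neither. Promoters in RefSeq's table, each 250 bases before and 50 after a start site, were matched for 9 of the 10 members, and all 15 entries were found once in GRCm39. Those of the survival genes, all 3 called lower at 48 h and in the sort below, and of *Bcl2l11* and *Bax*, as examples of a BH3-only gene and an effector, are given 5′ to 3′ on the strand of the gene. Capitals mark the motifs searched on both strands: the E-box CACGTG, the E2F sites TTTGGCGC and TTTCCCGC and the forkhead site TGTTTAC.
*Bcl2* (chr1:106641971-106642270, minus strand): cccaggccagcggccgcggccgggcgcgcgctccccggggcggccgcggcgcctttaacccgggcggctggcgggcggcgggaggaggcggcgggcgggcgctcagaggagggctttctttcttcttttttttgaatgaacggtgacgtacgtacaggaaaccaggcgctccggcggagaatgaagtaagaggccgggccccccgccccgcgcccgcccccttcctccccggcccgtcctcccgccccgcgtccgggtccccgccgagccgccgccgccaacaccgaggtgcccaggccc
*Bcl2l1* (chr2:152673599-152673898, minus strand): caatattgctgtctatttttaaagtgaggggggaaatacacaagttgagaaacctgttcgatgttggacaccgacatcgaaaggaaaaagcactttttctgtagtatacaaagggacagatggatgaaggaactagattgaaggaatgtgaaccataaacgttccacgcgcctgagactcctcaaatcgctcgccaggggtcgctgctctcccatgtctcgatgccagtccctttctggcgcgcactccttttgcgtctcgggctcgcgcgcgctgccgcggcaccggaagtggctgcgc
*Mcl1* (chr3:95565782-95566081, plus strand): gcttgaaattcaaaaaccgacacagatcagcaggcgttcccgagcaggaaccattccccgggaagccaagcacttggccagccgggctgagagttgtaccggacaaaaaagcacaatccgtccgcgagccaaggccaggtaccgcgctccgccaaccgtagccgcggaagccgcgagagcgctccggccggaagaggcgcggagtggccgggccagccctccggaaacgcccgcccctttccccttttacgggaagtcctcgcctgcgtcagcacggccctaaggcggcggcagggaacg
*Bcl2l11* (chr2:127967708-127968007, plus strand): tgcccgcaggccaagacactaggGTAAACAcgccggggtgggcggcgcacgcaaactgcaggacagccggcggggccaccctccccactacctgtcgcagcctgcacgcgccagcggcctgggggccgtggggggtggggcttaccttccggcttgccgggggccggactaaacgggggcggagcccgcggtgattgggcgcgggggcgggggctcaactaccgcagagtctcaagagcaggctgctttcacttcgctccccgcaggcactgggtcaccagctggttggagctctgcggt
*Bax* (chr7:45116273-45116572, minus strand): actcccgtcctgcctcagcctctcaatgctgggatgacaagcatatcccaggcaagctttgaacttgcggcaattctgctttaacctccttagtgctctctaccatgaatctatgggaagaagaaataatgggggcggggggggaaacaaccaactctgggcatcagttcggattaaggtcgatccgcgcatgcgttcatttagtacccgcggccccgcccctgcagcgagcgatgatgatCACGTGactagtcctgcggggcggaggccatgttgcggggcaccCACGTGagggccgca
The *Bax* window held the E-box 2 times and the *Bcl2l11* window held the forkhead site once, on the opposite strand, and none of the motifs was in the 3 windows of the survival genes. Over 32851 promoters of the same length, 7.15% held the E-box, 3.65% the forkhead site, 0.514% the first E2F site and 1.07% the second. A match is a description of letters, not a site shown to be used.

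At 48 h, the 3 survival genes took a smaller share of the RNA in treated than in untreated mice. *Bcl2* fell 1.64-fold, *Bcl2l1* 1.47-fold and *Mcl1* 1.08-fold, and the BH3-only gene *Pmaip1* fell 1.26-fold. The effector *Bax* rose 1.10-fold. Calls were made with edgeR's quasi-likelihood test at an adjusted p (Benjamini-Hochberg, over all 10270 genes tested) under 0.05. By this test 5 of the 10 members changed, 1 higher and 4 lower, where 47.3% of all genes were called, 24.8% higher and 22.5% lower. The share of members called was thus near that of all genes. The median over the members was -0.07 on the log2 scale, beside -0.00458 over all genes.

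*Bcl2* in the larger experiment was 3.40, 3.79, 4.88 and 5.10 CPM in the untreated mice at 48 h, and 1.66 at the lowest, 2.87 at the median and 5.72 at the highest of the treated mice. In the smaller experiment it was 5.37 and 7.002 in untreated and 1.87, 3.10 and 3.70 in treated mice. The groups overlapped in the larger experiment, where 5 of 6 treated mice were below every untreated mouse and 1 was above all of them, and did not overlap in the smaller one. The log2 fold change was -0.72 (SE 0.25, adjusted p = 0.0171). It was -0.51 (adjusted p = 0.133) in the larger experiment alone and -1.08 (adjusted p = 0.102) in the smaller one alone. Without untreated mouse B3 of the smaller experiment the call of *Bcl2* was lost (-0.62, adjusted p = 0.0632).

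*Bcl2l1* was called in each experiment alone. Untreated mice at 48 h had 8.77, 9.85, 9.94 and 14.02 CPM in the larger experiment, and treated mice 5.75, 7.98 and 10.02 as lowest, median and highest. The smaller experiment gave 12.5 and 14.9 CPM without and 7.49, 7.56 and 7.98 with treatment, with no overlap. The log2 fold change was -0.56 (SE 0.12, adjusted p = 1.54e-04), with -0.41 (adjusted p = 0.0188) and -0.84 (adjusted p = 0.00659) in the experiments alone, and it was called in all 15 fits that left out 1 mouse but not with thinned cells (-0.33, adjusted p = 0.161).

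*Mcl1* moved little. Its level at 48 h was 292, 316, 324 and 326 CPM in untreated and 278, 289 and 310 (lowest, median, highest) in treated mice of the larger experiment, and 277 and 280 against 246, 258 and 259 in the smaller one. Most treated mice were below every untreated mouse, 4 of 6 in the larger and 3 of 3 in the smaller experiment. The log2 fold change was -0.12 (SE 0.04, adjusted p = 0.0187), and the call was lost without treated mouse M13 (adjusted p = 0.0587) or M17 (adjusted p = 0.0667) of the larger experiment.

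Of the BH3-only members only *Pmaip1*, whose product NOXA binds MCL-1, was called at 48 h, at a log2 fold change of -0.34 (SE 0.12, adjusted p = 0.0216). Untreated mice of the larger experiment had 7.98, 10.97, 12.2 and 14.4 CPM and treated mice 6.59, 7.74 and 8.91 as lowest, median and highest. The smaller experiment showed no such difference, with 7.002 and 8.30 CPM against 7.41, 8.08 and 8.09, a log2 fold change of 0.02 (adjusted p = 0.949). The change thus came from the larger experiment, where it was -0.55 (adjusted p = 0.00292), and it was lost without untreated mouse M07 (adjusted p = 0.0652) or M09 (-0.24, adjusted p = 0.122).

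The other BH3-only members did not pass the test at 48 h. *Bcl2l11*, the main killer of lymphocytes that lose their survival signals, had a log2 fold change of 0.19 (95% interval -0.01 to 0.39). *Bbc3*, a target of p53, had -0.17 (-0.43 to 0.08). *Bid*, which links death receptors to mitochondria, had -0.02 (-0.13 to 0.09), and *Bad*, which is switched off by growth-factor kinases, had 0.08 (-0.07 to 0.22). Of these, *Bcl2l11* had 25.9 to 33.6 CPM in untreated and 30.7 to 43.1 in treated mice of the larger experiment, with 5 of 6 treated mice above every untreated one, but 27.7 and 43.8 against 29.9, 37.1 and 46.9 in the smaller one. It was called without untreated mouse B1 of the smaller experiment (0.30, adjusted p = 0.0144) and without treated mouse C3 (0.23, adjusted p = 0.0417).

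Both effectors had slightly higher levels in treated mice and *Bax* passed the test, at a log2 fold change of 0.14 (SE 0.05, adjusted p = 0.0201). *Bax* was 118, 122, 130 and 137 CPM in untreated and 127, 138 and 149 (lowest, median, highest) in treated mice of the larger experiment, and 64.1 and 70.6 against 72.4, 76.0 and 78.6 in the smaller one. *Bak1* was 61.0 to 69.9 CPM against 65.5 to 68.1, and 39.9 and 41.5 against 46.8, 47.1 and 49.7. Its log2 fold change was 0.11 (95% interval 0.00 to 0.23, adjusted p = 0.0896), and it was called without untreated mouse M09 (adjusted p = 0.0461) or treated mouse M13 (adjusted p = 0.0453). In the smaller experiment the treated mice were above the untreated ones for both genes, and in the larger one the groups overlapped. The call for *Bax* was lost without untreated mouse M09 (adjusted p = 0.0653) or B3 (adjusted p = 0.0564), and with CPM that were not scaled by TMM (0.08, adjusted p = 0.180). It was also lost in each experiment alone, with no term for the experiment, with cells of the B1-8hi receptor pairing only and with thinned cells.

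**Figure D1:**
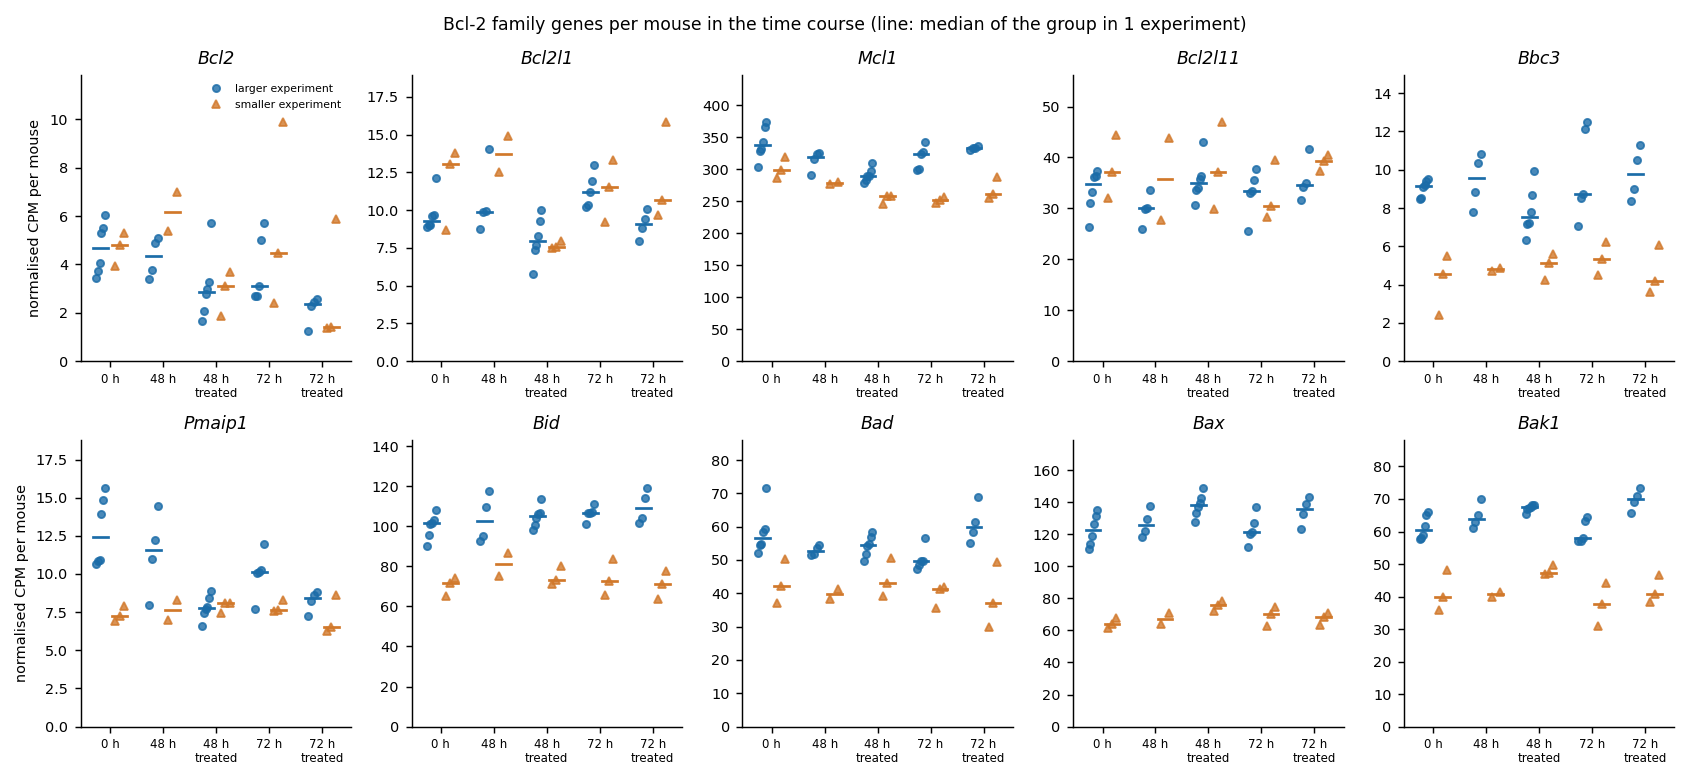
Normalised CPM of the 10 members (y axis, from 0) in the 5 conditions of the time course (x axis). Each point is 1 mouse, blue for the larger and orange for the smaller experiment, and a line is the median of a group within 1 experiment. *Bcl2l1* is lowest at 48 h after treatment in both experiments, and *Bax* sits at 111 to 149 CPM in the larger and 61.5 to 78.6 CPM in the smaller experiment.

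Treated cells at 48 h were also larger in RNA and fewer were in G1. Mean UMIs per cell were 15141 to 16871 in treated against 8299 to 10166 in untreated mice of the larger experiment, and 12798 to 14473 against 7323 to 7554 in the smaller one. Cells called G1 were 17.6% to 24.2% against 52.3% to 56.9%, and 15.6% to 18.6% against 43.9% to 44.0%. Markers of naive or memory B cells (among them *Cd38*, *Fcer2a*, *Ccr6*, *Klf2* and *S1pr1*) were lower beside the survival genes, 3 of 6 being called at 48 h. Their summed level was 150 to 208 CPM in treated and 329 to 423 in untreated mice of the larger experiment, and 101 to 119 against 225 to 260 in the smaller one. Most of this sum was *Fcer2a*, with a median over the time course of 221 CPM. None of the 6 was at 0 in any mouse of the time course. T cell markers summed to 138 to 162 CPM in treated and 175 to 228 in untreated mice of the larger experiment, nearly all of it *Lck* and *Cd2*, and all 5 that could be tested were lower. Of 6 tested plasma cell markers 2 were higher and 1 lower, and of 2 tested myeloid markers 0 were called. GC B cell markers summed to 4402 to 4771 CPM in treated and 5144 to 5506 in untreated mice of the larger experiment, and to 3666 to 4055 against 4449 to 4707 in the smaller one. Cells with the B1-8hi receptor were 70.5% to 77.7% of treated and 62.3% to 67.2% of untreated cells in the larger experiment, and 53.1% to 58.0% against 34.7% to 38.8% in the smaller one. A cell counted only when a single productive heavy and a single productive light chain were recovered and both matched. These shares thus also depend on how often chains were recovered. Mitochondrial UMIs were 2.18% to 2.32% in treated and 2.33% to 2.42% in untreated mice of the larger experiment, and 3.85% to 4.19% against 4.35% to 4.41% in the smaller one. The part of any of these in the falls of *Bcl2*, *Bcl2l1* and *Mcl1* was not tested. Over cells with the B1-8hi receptor pairing alone, *Bcl2l1* fell by 0.56 on the log2 scale (adjusted p = 0.00103) and *Mcl1* by 0.13 (adjusted p = 0.0241), and *Bcl2* had -0.57 (adjusted p = 0.115). Neither *Pmaip1* nor *Bax* was called over those cells. Cells were also thinned, to 3970 UMIs each in the larger and 2280 in the smaller experiment. Cells with fewer UMIs, 1361 and 1006, were left out. With these thinned cells *Mcl1* alone was called (-0.15, adjusted p = 0.00449), and *Bcl2* had -0.45 (adjusted p = 0.395).

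Counted per cell instead of as CPM, no member was called lower at 48 h. The median of all genes rose by 0.78 on the log2 scale when library sizes were set to the number of cells, and 8 of the 10 members were called higher and 0 lower. In this fit 9584 of all 10270 genes were called. *Mcl1* rose by 0.67, from between 2621 and 2876 UMIs per 1000 cells in untreated to between 4167 and 4655 in treated mice of the larger experiment. *Bax* rose by 0.92 and *Bcl2l11* by 0.97, to more than the median of all genes. *Bcl2* had 0.07 (adjusted p = 0.803) and *Bcl2l1* 0.23 (adjusted p = 0.0705), the 2 members not called. Relative to the median of all genes, *Bcl2* was at -0.71, *Bcl2l1* at -0.55 and *Mcl1* at -0.11 on this scale.

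**Figure D2:**
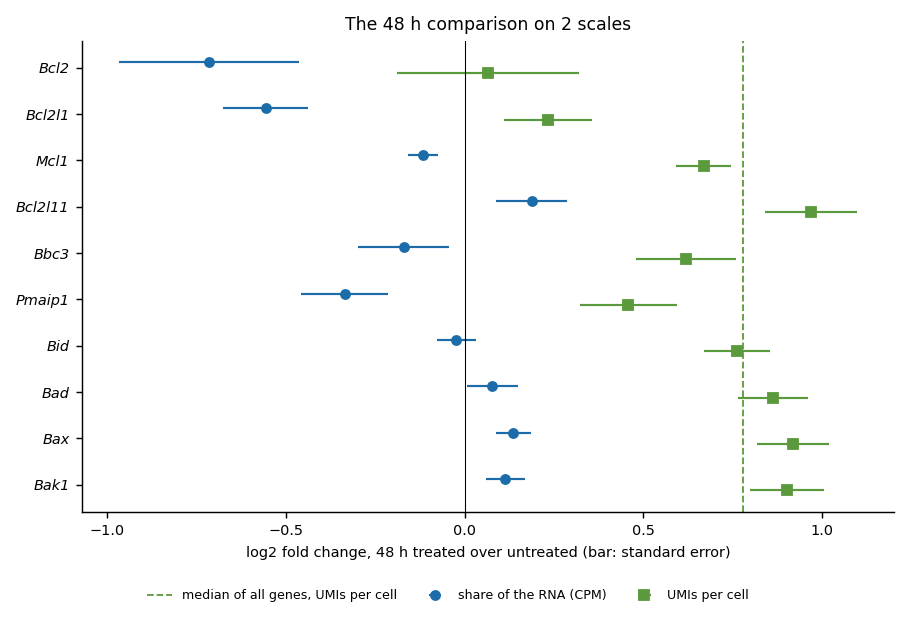
Log2 fold change of treated over untreated mice at 48 h (x axis) for the 10 members (y axis), with bars of 1 standard error. Blue circles are the share of the RNA in TMM-scaled CPM and green squares are UMIs per cell. The dashed line is the median of all genes per cell, 0.78. Per cell, *Bcl2* (0.07) and *Bcl2l1* (0.23) lie farthest to the left of it, and *Bcl2l11* (0.97) farthest to the right.

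At 72 h fewer genes were called than at 48 h. *Bcl2* was 2.09-fold lower in treated than in untreated mice, and *Bak1* was 1.15-fold higher. These were the 2 members called, 1 higher and 1 lower, of 10 tested, beside 8.66% of all genes. *Bcl2* was 2.69, 2.72, 3.13, 5.03 and 5.72 CPM in untreated and 1.23, 2.30, 2.47 and 2.56 in treated mice of the larger experiment, with no overlap. In the smaller one it was 2.39, 4.49 and 9.87 against 1.36, 1.40 and 5.87, with overlap. The log2 fold change was -1.06 (SE 0.31, adjusted p = 0.0219), over as few as 3 UMIs per mouse. *Bak1* was 57.1 to 64.6 CPM in untreated and 65.8 to 73.5 in treated mice of the larger experiment, with no overlap, and 31.0, 37.6 and 44.2 against 38.2, 40.9 and 46.7 in the smaller one, with a log2 fold change of 0.21 (SE 0.06, adjusted p = 0.0219).

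Neither call at 72 h was firm, and in the larger experiment alone *Bak1* (0.22, adjusted p = 0.0174) and *Bad* (0.26, adjusted p = 0.0288) were called and *Bcl2* was not (-0.87, adjusted p = 0.131). *Bcl2* lost it without treated mouse M25 (adjusted p = 0.0681) or E1 (adjusted p = 0.0847) or without untreated mouse D3 (-0.75, adjusted p = 0.116), which had 78 UMIs. *Bak1* lost it without M26 (adjusted p = 0.0719), D2 (adjusted p = 0.0597) or E1 (adjusted p = 0.0587). With B1-8hi cells only, *Bcl2* had -0.50 (adjusted p = 0.473) and *Bak1* 0.16 (adjusted p = 0.123). Markers of naive or memory B cells summed to 251 to 324 CPM in treated and 326 to 442 in untreated mice of the larger experiment and to 184 to 251 against 216 to 329 in the smaller one, with 2 of 6 lower. Their part in the difference in *Bcl2* was not tested. *Bcl2l1* (-0.18, 95% interval -0.44 to 0.08), *Mcl1* (0.07, -0.01 to 0.16), *Pmaip1* (-0.20, -0.48 to 0.08) and *Bax* (0.06, -0.04 to 0.16), the other members that had changed at 48 h, did not pass the test at 72 h.

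Between 48 h and 72 h after treatment, *Bcl2l1* and *Mcl1* rose, by 0.33 (SE 0.12, adjusted p = 0.0219) and 0.15 (SE 0.04, adjusted p = 0.00223) on the log2 scale. They were the 2 members called, beside 48.9% of all genes. *Mcl1* in the larger experiment went from 278 to 310 CPM at 48 h to 330, 333, 333 and 336 at 72 h, above every mouse at 48 h. The smaller experiment gave 246, 258 and 259 CPM and then 256, 261 and 288. *Bcl2l1* reached 7.94, 8.81, 9.42 and 10.05 CPM in the larger experiment, overlapping the 48 h mice, and 9.65, 10.7 and 15.8 in the smaller one, above all 3 mice at 48 h. The call for *Bcl2l1* was lost without any one of the treated mice M16, M23, C1 or E3 (adjusted p = 0.0535 to 0.0756). Over the same time, cells called G1 went from 17.6% to 24.2% to between 49.2% and 56.5% in the larger and from 15.6% to 18.6% to between 34.2% and 46.3% in the smaller experiment. The sum of naive or memory B cell markers went from 150 to 208 CPM to between 251 and 324, and from 101 to 119 to between 184 and 251. Most of this sum was *Fcer2a*. Of the 6 markers 1 was called higher and 2 lower, with a median of -0.08 on the log2 scale. Within phases, as given below, *Mcl1* was not called and *Bcl2l1* was called in G2M alone. Per cell, where the median of all genes fell by 0.69 from 48 h to 72 h, all 10 members were called lower, beside 9471 of all 10270 genes called.

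Over all cells, as a share of the RNA, the treatment effect differed between the times for *Mcl1* alone among the members. The interaction, the log2 treatment effect at 72 h minus that at 48 h, was 0.19 (SE 0.06, adjusted p = 0.0130) for *Mcl1*, beside 31.4% of all genes called, and held in all 30 fits that left out 1 mouse. It was not called in the larger (0.19, adjusted p = 0.0607) or the smaller experiment alone (0.22, adjusted p = 0.158), and within phases *Mcl1* had -0.03 in G1, -0.02 in S and 0.14 in G2M, none called. It was 0.38 (95% interval 0.02 to 0.73, adjusted p = 0.096) for *Bcl2l1* and -0.35 (-1.16 to 0.46) for *Bcl2*, so that over all cells the difference in *Bcl2* at 72 h was not shown to differ from that at 48 h. Within G1 cells the interaction for *Bcl2* was -2.40 (adjusted p = 0.0102). Counted per cell, the interaction was called lower for 9 members and higher for 0, beside 8648 of all 10270 genes called. For *Mcl1* it then had the opposite direction.

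Without treatment, the members hardly moved from 0 h to 72 h. By edgeR 0 of 10 were called from 0 h to 48 h, beside 0.136% of all genes, and 0 of 10 from 48 h to 72 h, beside 0.156%. DESeq2 gave 0 in both, and at an unadjusted p under 0.05 edgeR gave 1 member, *Mcl1*, in the first and 0 in the second, and 968 and 824 of all genes. From 0 h to 72 h *Mcl1* fell 1.11-fold (log2 -0.15, SE 0.04, adjusted p = 0.0159), the 1 member called beside 3.95% of all genes. It was 303 to 373 CPM at 0 h and 298 to 342 at 72 h in the larger experiment. In the smaller one it was 287, 299 and 319 and then 247, 252 and 257, with no overlap. It was called in all 17 fits that left out 1 mouse and in neither experiment alone. Nor was it called with no term for the experiment, with only the groups compared, per cell, in G1, in G2M or with thinned cells.

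**Figure D3:**
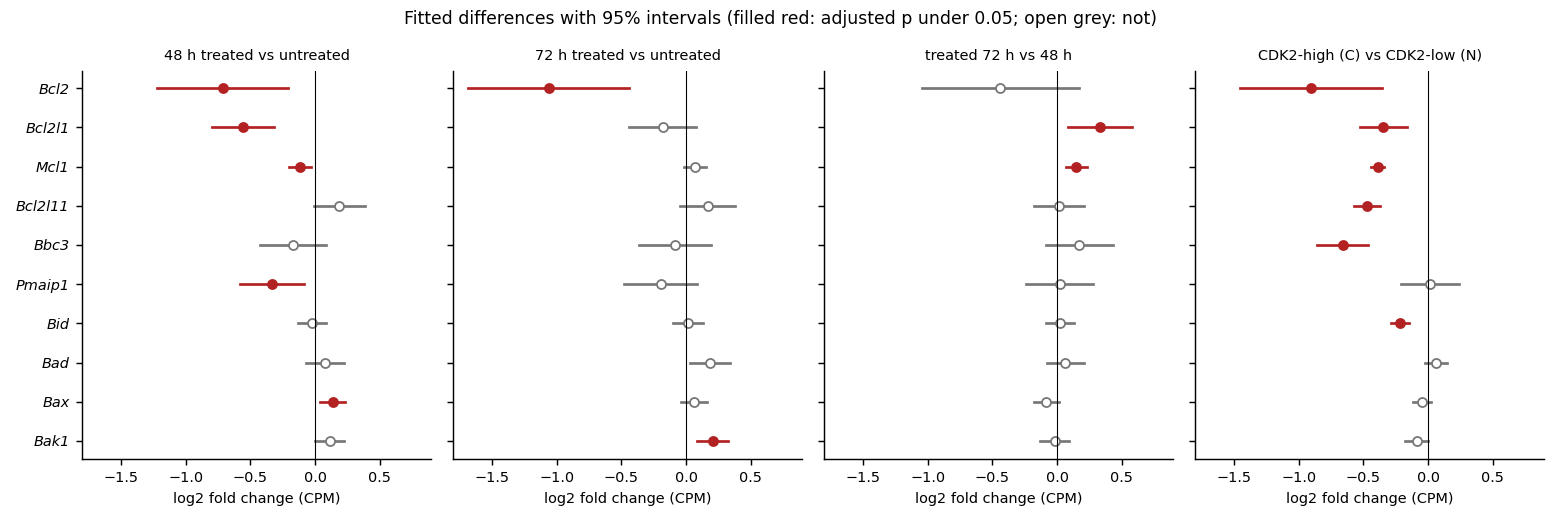
Fitted log2 fold changes (x axis) of the 10 members (y axis), with 95% intervals, in one panel per comparison. Filled red points passed an adjusted p under 0.05 in edgeR's quasi-likelihood test and open grey points did not. The red points left of 0 are *Bcl2*, *Bcl2l1*, *Mcl1* and *Pmaip1* at 48 h, *Bcl2* at 72 h and 6 members in CDK2-high cells. Of these, *Mcl1* at 48 h (-0.12) lies close to 0.

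The members differed in level between the called phases of the cell cycle, and the phases changed with treatment. *Mcl1* was highest in G1, with medians over mice of 418 CPM in G1, 290 in S and 266 in G2M in the larger and 352, 257 and 237 in the smaller experiment. Its level in G1 was above that in S and in G2M in all 25 and all 14 mice. *Bcl2* had medians of 7.60, 2.07 and 1.79 CPM in G1, S and G2M and then 11.9, 2.75 and 1.99. *Bcl2l11* showed the same order, 43.3, 34.1 and 25.5 and then 52.9, 35.3 and 25.4 CPM, and so did *Bbc3*, 11.95, 9.24 and 6.13 and then 6.82, 5.54 and 3.71. For *Bbc3*, G1 was above S in 17 of 25 and 8 of 14 mice. *Pmaip1* had its lowest median in G1 (8.71, 10.6 and 9.68 CPM, then 5.49, 9.09 and 7.83), though its level in G1 was above that in G2M in 13 of 25 mice of the larger experiment and 1 of 14 of the smaller one, and *Bax* had its highest median in S (129, 139 and 113, then 62.6, 74.8 and 68.8). *Bak1* had its highest median in G2M (65.7, 57.1 and 73.5, then 40.9, 38.5 and 45.3). These medians are a description over all 5 conditions, and CPM within a phase were normalised over the samples split by phase. In the sort, G1 was above S in 14 of 14 samples for *Mcl1*, 10 for *Bcl2l11*, 5 for *Bcl2* and 5 for *Bbc3*.

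**Figure D4:**
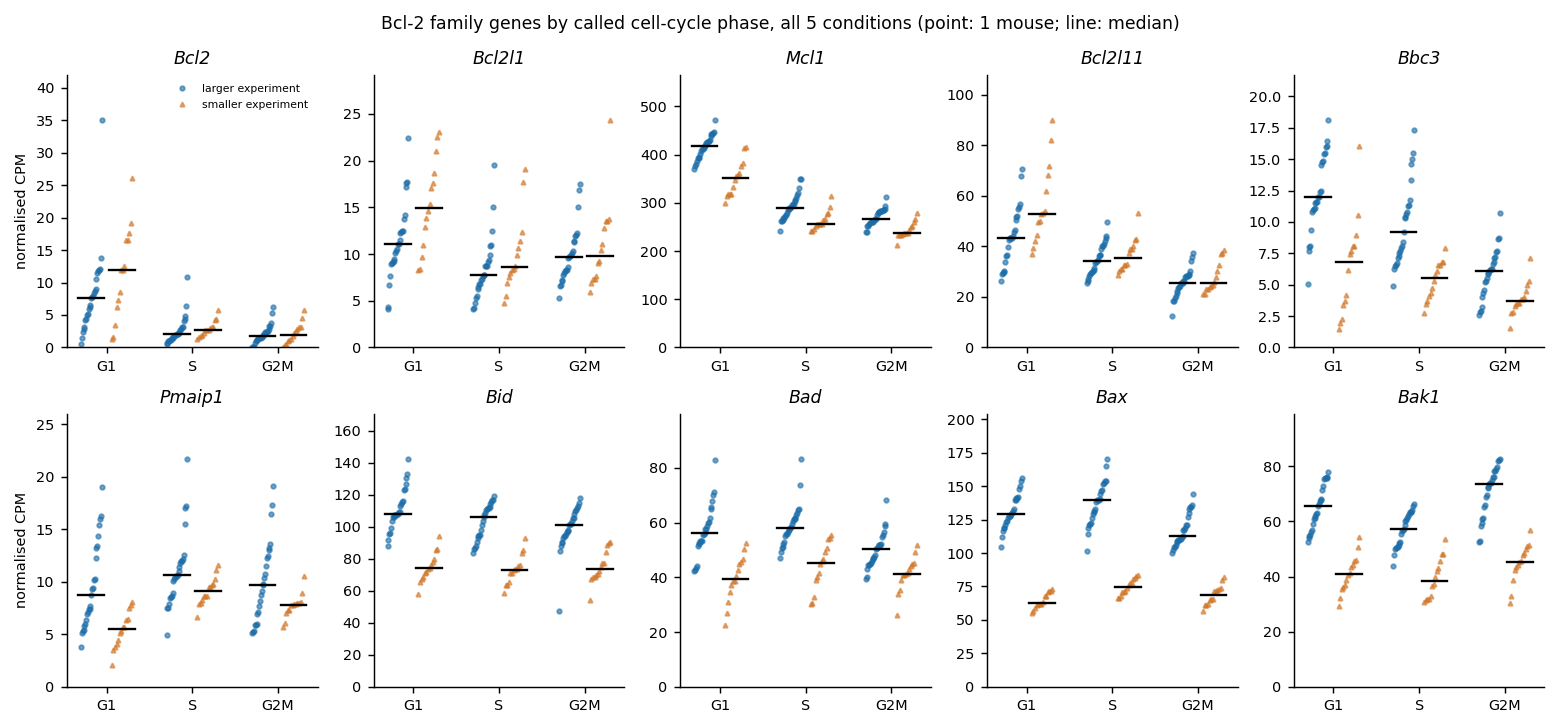
Normalised CPM of the 10 members (y axis, from 0) in cells called G1, S or G2M (x axis), over all 5 conditions. Each point is 1 mouse, blue for the larger and orange for the smaller experiment, and lines are medians. *Mcl1* in G1 (medians 418 and 352 CPM) lies above S and G2M in every mouse, and *Bak1* has its highest median in G2M (73.5 and 45.3 CPM).

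Within single phases, *Mcl1* and *Bcl2l1* no longer passed the test at 48 h. Fewer genes passed it there, 729 of 8886 in G1, 1127 of 9188 in S and 1594 of 9260 in G2M, beside 47.3% over all cells. *Mcl1* had log2 fold changes of 0.03 in G1, 0.05 in S and -0.01 in G2M cells, against -0.12 over all cells, and *Bcl2l1* had -0.23, -0.43 and -0.44 against -0.56. *Bax* had -0.04, 0.13 and 0.16 and did not pass it either. *Bcl2* had 0.55 (adjusted p = 0.368) in G1, in the opposite direction to all cells, and had too few UMIs to be tested in S and G2M. *Pmaip1* fell in G2M cells (-0.56, adjusted p = 0.0293) and *Bcl2l11* rose in S cells (0.32, adjusted p = 0.0432), with 0.48 (adjusted p = 0.0762) in G1.

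At 72 h, *Bcl2* was lower in treated mice within G1 cells, by 1.85 on the log2 scale (adjusted p = 0.00374). In G1 cells of the larger experiment it ranged from 4.38 to 11.9 CPM in untreated and from 0.516 to 3.22 in treated mice, with no overlap, and from 7.29 to 26.1 and from 1.35 to 16.5 in the smaller one. At 48 h after treatment it had ranged from 2.90 to 35.0 and from 1.61 to 19.1 CPM in G1 cells, with medians of 11.1 and 16.5, and it fell by 2.22 from there to 72 h (adjusted p = 9.36e-04). These values in G1 cells rest on 15 and 14 UMIs of *Bcl2* in treated mice at 72 h, and *Bcl2* had too few UMIs to be tested in S and G2M cells. Over all cells it was not called between 48 h and 72 h (-0.44, adjusted p = 0.234). In G2M cells *Bcl2l1* rose from 48 h to 72 h after treatment, by 0.80 (adjusted p = 2.15e-04), and *Bax* fell by 0.23 (adjusted p = 0.00551), while in G1 cells *Bcl2l1* had -0.66 (adjusted p = 0.0893) and *Mcl1* -0.08 (adjusted p = 0.571), opposite to their rise over all cells.

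The sort by the CDK2 reporter compared cells of high and low CDK2 activity within the same mice. CDK2-high cells had less of 6 members, 3 survival genes and 3 BH3-only genes, and none of the 10 was called higher. *Bcl2* was 1.87-fold lower, *Bbc3* 1.58-fold, *Bcl2l11* 1.39-fold, *Mcl1* 1.31-fold, *Bcl2l1* 1.27-fold and *Bid* 1.16-fold. *Bax*, *Bak1*, *Pmaip1* and *Bad* did not pass the test. *Bak1* lay near the threshold (adjusted p = 0.0611) and was called lower without mouse M1, M3 or M6 (adjusted p = 0.0343 to 0.0484), with no filter on cells (0.0429) and with mice assigned by the highest hashtag (0.0395). The 6 of 10 stand beside 73.3% of 10596 genes called in this comparison, 35.6% higher and 37.8% lower. The median over the members was -0.28 on the log2 scale, beside -0.03 over all genes. All tests were paired by mouse in edgeR.

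*Mcl1* and *Bcl2l11* separated the populations completely. *Mcl1* was 271, 306 and 332 CPM (lowest, median, highest of 7 mice) in CDK2-high and 354, 409 and 436 in CDK2-low cells, lower in CDK2-high cells in 7 of 7 mice, with a log2 fold change of -0.39 (SE 0.02, adjusted p = 2.16e-13). *Bcl2l11* was 33.3, 34.2 and 43.9 CPM against 46.9, 48.8 and 56.5, also lower in 7 of 7 mice (-0.47, SE 0.05, adjusted p = 5.40e-09). MCL-1 is known to bind BIM and NOXA, and *Pmaip1*, the gene of NOXA, was not called here (0.02). Protein binding was not measured, and 37.8% of all genes were called lower in this comparison.

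*Bbc3*, *Bid* and *Bcl2l1* were lower in CDK2-high cells in 7 of 7 mice as well. *Bbc3* was 4.70, 6.93 and 10.2 CPM against 10.02, 11.4 and 12.1 (-0.66, SE 0.09, adjusted p = 9.30e-07), with 1 CDK2-high sample above the lowest CDK2-low sample. *Bid* was 70.9, 74.6 and 79.89 CPM against 79.88, 89.5 and 93.2 (-0.22, SE 0.03, adjusted p = 1.98e-06), which just overlapped. *Bcl2l1* was 9.004, 9.45 and 11.6 CPM against 9.39, 11.9 and 17.6 (-0.34, SE 0.09, adjusted p = 0.00101), with overlap.

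*Bcl2* was lower in CDK2-high cells in 6 of 7 mice, on 5 to 70 UMIs per sample. It was 0.899, 1.63 and 2.67 CPM in CDK2-high cells. CDK2-low cells of 6 mice had 2.05 to 3.38 CPM and those of mouse M6 had 13.7 (70 UMIs). The log2 fold change was -0.91 (SE 0.27, adjusted p = 0.00366), and -0.48 (adjusted p = 0.0254) without mouse M6. The CDK2-low sample of M6 also had the highest sum of naive or memory B cell markers, 460 CPM beside 306 to 419 in the other mice, and the part of these markers in its *Bcl2* was not tested. With B1-8hi cells only, the difference was -0.72 (adjusted p = 0.00795), and with thinned cells -0.62 (adjusted p = 0.0792).

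The effectors, *Pmaip1* and *Bad* did not pass the test, and *Pmaip1*, with 29 to 126 UMIs per sample, had the widest interval on the log2 scale. *Bax* was 83.9 to 98.6 CPM in CDK2-high and 86.7 to 108 in CDK2-low cells (-0.05, 95% interval -0.12 to 0.02) and *Bak1* 49.99 to 62.5 against 48.4 to 72.6 (-0.09, -0.18 to 0.00). *Pmaip1* was 6.01 to 9.40 CPM against 5.54 to 8.60 (0.02, -0.21 to 0.24), and *Bad* 56.0 to 64.3 against 45.7 to 63.4 (0.06, -0.02 to 0.15). These values depend on the scale. With CPM not scaled by TMM, where the median of all genes was -0.23, *Bax* had -0.25, *Bak1* -0.29 and *Bad* -0.14, all called lower. Per cell, where the median was -0.52, all 10 members were called lower. Of all 10596 genes, 8467 were called without TMM and 9324 per cell. With thinned cells *Bad* was called higher (0.16, adjusted p = 0.0237). Relative to the median of all genes, *Bax* was at -0.02, *Bak1* at -0.06 and *Bad* at 0.09, both without TMM and per cell.

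**Figure D5:**
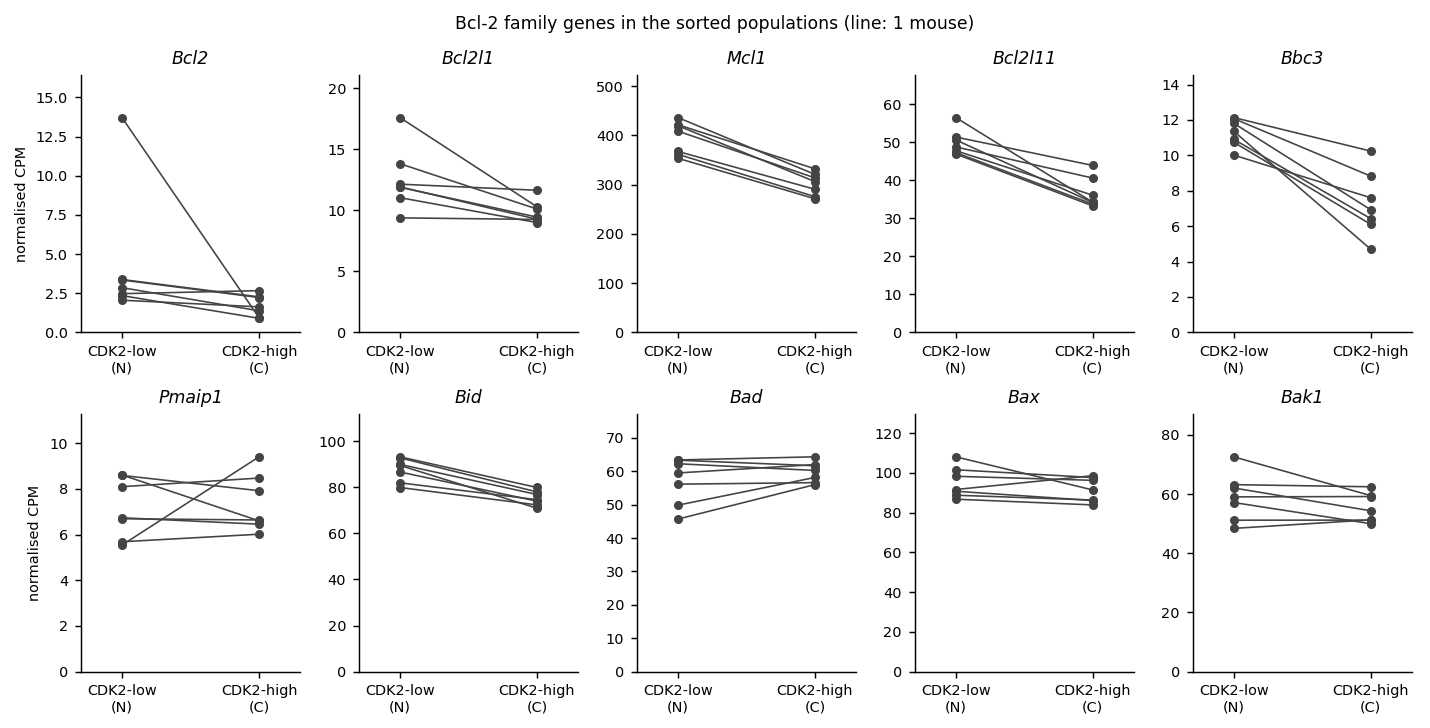
Normalised CPM of the 10 members (y axis, from 0) in CDK2-low (N) and CDK2-high (C) cells (x axis), with 1 line per mouse. All 7 lines of *Mcl1*, *Bcl2l11*, *Bbc3*, *Bid* and *Bcl2l1* run down from N to C, and 1 mouse at 13.7 CPM stands apart for *Bcl2* in N.

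The populations differed in phase and in other markers too. The study compared sorted cells that had a DZ expression pattern, whereas the sums here held all kept cells, without a split by zone. In untreated GCs of the study, light zone cells mostly had the nuclear reporter. CDK2-high cells were 12.2% to 19.3% in G1 and 45.8% to 57.7% in G2M, and CDK2-low cells 53.1% to 63.2% and 6.65% to 12.5%, with 29.3% to 35.97% in S. Mean UMIs per cell were 9885 to 12147 in CDK2-high and 11671 to 15157 in CDK2-low cells. Naive or memory B cell markers summed to 107 to 190 CPM in CDK2-high and 306 to 460 CPM in CDK2-low cells, 4 of 6 being lower in CDK2-high cells, and T cell markers to 113 to 131 against 196 to 264, nearly all of it *Lck* and *Cd2*. Among them *Cd3d*, *Cd3e*, *Cd3g*, *Cd4* and *Cd8a* had medians of 0.504 CPM or less. Mitochondrial UMIs were 3.03% to 3.39% in CDK2-high and 3.41% to 3.86% in CDK2-low samples. Myeloid markers summed to 4.51 to 7.03 against 7.36 to 20.6 CPM, plasma cell markers to 1204 to 1475 against 1000.04 to 1282, and GC B cell markers to 3923 to 4327 against 4411 to 4945. The part of any of these in the differences was not tested.

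Within each phase, *Mcl1* and *Bcl2l11* stayed lower in CDK2-high cells. *Mcl1* had log2 fold changes of -0.20 in G1, -0.28 in S and -0.38 in G2M, and *Bcl2l11* -0.26, -0.32 and -0.82, all 6 past the threshold. Over all genes, 5672 of 9544 were called in G1, 5881 of 9737 in S and 4615 of 9489 in G2M. In G1 cells *Mcl1* was 358 to 407 CPM in CDK2-high and 398 to 476 in CDK2-low samples. *Bbc3* was lower in G1 (-0.64) and G2M (-0.86) and had -0.26 (adjusted p = 0.0964) in S. *Bcl2l1* was lower in S (-0.67) and G2M (-0.49) and had -0.03 (adjusted p = 0.887) in G1, and *Bcl2* was lower in S (-0.92) with -0.16 (adjusted p = 0.756) in G1. *Bid* was lower in G1 (-0.21) and S (-0.29) and had 0.20 (adjusted p = 0.054) in G2M.

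*Bad* and *Bak1*, which did not pass over all cells, changed direction between phases. *Bad* was higher in CDK2-high cells in G1 (0.36, adjusted p = 1.44e-04) and S (0.15, adjusted p = 0.0185) and lower in G2M (-0.40, adjusted p = 8.07e-04). In G1 cells it was 65.7 to 90.2 CPM in CDK2-high and 43.1 to 69.8 in CDK2-low samples, and in G2M cells 47.9 to 58.0 and 51.8 to 120. With CPM not scaled by TMM, *Bad* was still higher in G1 (0.25, adjusted p = 0.00589). *Bak1* was higher in G1 (0.18, adjusted p = 0.0458), though not with CPM not scaled by TMM (0.07, adjusted p = 0.432), and lower in G2M (-0.48, adjusted p = 7.06e-06), and *Bax* was lower in G2M (-0.22, adjusted p = 0.0179). CDK2-low cells called G2M were few, 439 over 7 mice.

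The other genes of the pathway were counted on lists written out by their roles, and these counts are descriptions. They stand beside 24.8% of all genes called higher and 22.5% lower at 48 h, 8.66% called either way at 72 h, 48.9% called from 48 h to 72 h after treatment, and 35.6% higher and 37.8% lower in CDK2-high cells. Of 15 other Bcl-2 family genes, 9 could be tested in the time course. At 48 h 3 of them fell and 0 rose: *Bmf* (-0.89, SE 0.17), a BH3-only gene, and *Bcl2a1d* (-0.46, SE 0.11) and *Bcl2a1b* (-0.33, SE 0.09), near-identical copies of a survival gene whose reads could be split between them. The median of the 9 was -0.03, beside -0.00458 over all genes. *Bmf* was 5.44 to 10.6 CPM in untreated and 3.65 to 5.42 in treated mice of the larger experiment, and 4.39 and 6.83 against 2.39 to 3.17 in the smaller one. From 48 h to 72 h after treatment it rose by 1.14 (SE 0.17), and the list counted 3 higher and 2 lower. In CDK2-high cells 2 of 10 were higher and 5 lower, *Bmf* at -1.24 (SE 0.08) with 4.92 to 7.15 against 11.9 to 18.6 CPM, and *Bik*, another BH3-only gene, at 0.94 (SE 0.23).

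Of 16 genes that act at or after the mitochondrial step, all tested, 10 rose and 1 fell at 48 h, with a median of 0.17. *Endog*, a mitochondrial nuclease, rose by 0.56 (SE 0.13), *Vdac1*, a channel of the outer membrane, by 0.53 (SE 0.06) and *Cycs*, cytochrome c, by 0.41 (SE 0.07). *Vdac1* was 124 to 157 CPM in untreated and 178 to 208 in treated mice of the larger experiment, with no overlap. At 72 h 3 rose and 1 fell. From 48 h to 72 h after treatment 1 rose and 8 fell, *Endog* by 0.72 and *Vdac1* by 0.59. In CDK2-high cells 12 of 16 were higher and 3 lower (median 0.27), among them *Vdac1* (0.70, SE 0.04).

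Among 7 inhibitor of apoptosis genes at 48 h, 5 fell and 1 rose (median -0.30). *Birc3*, a ubiquitin ligase of the NF-κB pathway, fell by 0.78 (SE 0.08), from 122 to 148 CPM to 69.7 to 86.0 in the larger experiment, and *Naip5* and *Naip6*, sensors of bacterial proteins in similar copies, fell by 1.55 (SE 0.27) and 0.92 (SE 0.32). *Birc5*, survivin, which also acts in mitosis, rose by 0.53 (SE 0.09). In CDK2-high cells 1 was higher and 5 lower, *Birc5* at 3.10 (SE 0.06) with 365 to 391 against 28.3 to 55.9 CPM, and *Naip5* at -2.02 (SE 0.25). At 72 h 0 were higher and 1 lower (*Birc3*, -0.37, SE 0.09).

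In the death receptor arm, 1 of 8 genes rose at 48 h and 2 fell (median 0.01). *Fadd*, an adaptor, rose by 0.27 (SE 0.07). *Fas*, the receptor itself, whose protein was also part of the sort gate, fell by 0.31 (SE 0.05) and *Cflar*, an inhibitor of caspase-8, fell by 0.26 (SE 0.06). At 72 h *Ripk1* was the 1 gene called (0.32, SE 0.08). In CDK2-high cells 2 were higher and 4 lower, with *Tnfrsf10b*, a TRAIL receptor, at -0.77 (SE 0.16) and *Fadd* at 0.43 (SE 0.09). Of 15 tested regulators of Bcl-2 family genes or proteins, 1 rose and 8 fell at 48 h (median -0.15). *Foxo3*, a transcription factor that can drive *Bcl2l11*, fell by 0.56 (SE 0.13), *Fbxw7*, which marks MCL-1 for degradation, by 0.46 (SE 0.07), and *Stat3* and *Stat5a* by 0.40 (SE 0.06) and 0.30 (SE 0.08). At 72 h *Pim1* was the 1 regulator called (-0.43, SE 0.09). In CDK2-high cells 4 regulators were higher and 8 lower, *Foxo3* at -0.91 (SE 0.09) and *Mapk3* at 0.60 (SE 0.06). All of these tests were edgeR's, over all genes.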

How the data were processed

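Single-cell 5′ libraries of GC B cells from mouse lymph nodes were used, 2 pools for the time course and 1 each for CDK2-high and CDK2-low cells. The deposited files hold raw UMI counts, with genes and hashtags against cells, which the authors obtained from Cell Ranger with an mm39 reference and did not normalize. The labels name Cell Ranger 6.0.1 and Seurat 5.1.0, and the file headers another Cell Ranger version. From these counts, cells were assigned to mice with HTODemux in Seurat 5.3.0 (quantile 0.99), when their positive hashtags were exactly those listed for 1 mouse. Cells positive for several mice were dropped, 1936 and 2705 in the larger and smaller experiment and 975 and 507 in the CDK2-high and CDK2-low pools, and doublets within a mouse were not searched for. Cells needed at least 200 genes and under 10% mitochondrial UMIs. The mitochondrial limit removed 332 and 3036 assigned cells of the time course and 241 and 67 of the sort, and the limit on genes some more. Phases came from CellCycleScoring.

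UMIs were summed per mouse, the replicate, and compared by the quasi-likelihood test of edgeR 4.0.16 under R 4.3.3, after filterByExpr and TMM scaling, with Benjamini-Hochberg adjustment over all genes and a threshold of 0.05. The time course was 1 fit with a term for the experiment, and the sort was paired by mouse, because both populations came from the same animals. The test was checked on simulated counts. Of 100 changes of 1 on the log2 scale, 98 were recovered in the 48 h comparison and 98 in the sort. Of 100 changes of 0.5, 62 and 65 were recovered. Smaller changes were not simulated, and the simulation used the same spread for every gene, without effects of experiment or mouse. The study's methods kept cells with the B1-8hi receptor pairing, here an alternative. DESeq2 1.42.0, no filter on genes or cells, no term for the experiment, only the groups compared, each experiment alone, another assignment to mice, thinned cells, single phases, UMIs per cell and no pairing by mouse were further alternatives. CPM without TMM and leaving out each mouse of the time course were chosen after seeing the data. The members and lists were chosen with earlier results of these data known. All members are named, and of each other list at most 4 genes at 48 h and 2 in other comparisons, those with the largest change past the threshold. Some genes of these lists and a position of *Pmaip1* are not reported here.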

Additional observations from a re-analysis of the deposited data

Results flagged for a closer look

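Of 70 groups of 4 to 7 mice, 4 held a member with 1 mouse far from the others by Dixon's test at the 95% level, and chance alone gives about 1 in 20 groups. *Bcl2* was 13.7 CPM in the CDK2-low sample of mouse M6. *Bcl2l1* was 12.1 CPM and *Bad* 71.7 CPM in Day7 mouse M06 of the larger experiment, and *Bad* was 56.7 CPM in Day10 mouse M19 of that experiment, each the highest of its group. The treatment effect on *Mcl1* as a share of the RNA differed between the times, by 0.19 on the log2 scale (edgeR interaction, adjusted p = 0.0130).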

How the results depend on the processing

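Of 1145 values of single members under all alternatives but CPM without TMM and leaving out a mouse of the time course, 1016 kept their side of the threshold, 65 were no longer past it, 31 newly passed it and 33 changed direction where at least 1 of both fits was past it. Of 1310 under those, chosen after seeing the data, these were 1280, 20, 9 and 1. Among the 1016 and the 1280 were 121 and 73 values, past the threshold in neither fit, whose sign also changed. The counts below are members called, of 10. At 48 h (5) they were 2 with no term for the experiment, 3 in the larger and 1 in the smaller experiment, 8 per cell, 2 with B1-8hi cells only, 0 in G1, 1 in S, 1 in G2M and 1 with thinned cells, and 3 to 6 without 1 mouse. At 72 h (2) they were 0 with no term, 0 with only the groups compared, 0 in the smaller experiment, 0 per cell, 1 with no cell filter, 1 with B1-8hi cells, 1 in G1, 0 in S, 0 in G2M and 0 thinned, and 0 to 3 without 1 mouse. In the larger experiment they were 2, both higher (*Bak1* and *Bad*). With B1-8hi cells the 1 member called was higher and was neither *Bcl2* nor *Bak1*. From 48 h to 72 h after treatment (2) they were 1 with no term, 1 in the smaller experiment, 10 per cell, 1 with B1-8hi cells, 1 in G1 (*Bcl2*, lower), 0 in S and 1 thinned, and 1 to 3 without 1 mouse. Untreated, 48 h against 0 h (0) gave 1 in S cells, and 72 h against 0 h (1) gave 0 with no term, with only the groups compared, in either experiment, per cell, in G1, in G2M and thinned. The interaction (1) gave 0 with no term, in either experiment, in S and in G2M and 9 per cell, and in G1 the 1 member called was *Bcl2*, lower. The sort (6) gave 10 per cell, 7 with no cell filter and 7 by the highest hashtag (*Bak1* added), 6 with thinned cells (*Bad* added as higher, *Bcl2* lost), 6 to 7 without 1 mouse, and 6 without the replicate block by mouse, which changed no other call. Calls over all genes changed under the same alternatives. At 48 h the main fit called 4855 of 10270 genes and the fit with no term 2680 of 10220. Each experiment alone gave 3838 of 10133 (larger) and 2149 of 10334 (smaller). Counting per cell gave 9584 of 10270, B1-8hi cells 3389 of 9893 and thinned cells 3335 of 9395. Single phases gave 729 of 8886 in G1, 1127 of 9188 in S and 1594 of 9260 in G2M. At 72 h 889 of 10270 genes were called, 217 of 10220 with no term and 22 of 10334 in the smaller experiment. B1-8hi cells gave 712 of 9893 and thinned cells 557 of 9395. From 48 h to 72 h after treatment 5025 of 10270 were called, and 3104 of 10220 with no term. The smaller experiment then gave 2661 of 10334, G1 cells 457 of 8886, S cells 2399 of 9188 and thinned cells 3032 of 9395. For the interaction 3223 of 10270 were called, and 1222 of 10220 with no term. The causes were not tested.

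Directions that changed with a call in at least 1 of both fits were as follows, on the log2 scale. At 48 h, *Pmaip1* was 0.024 in the smaller experiment. Per cell, *Bbc3* was 0.62, *Bcl2* 0.066, *Bcl2l1* 0.23, *Bid* 0.76, *Mcl1* 0.67 and *Pmaip1* 0.46. *Bax* was -0.044, *Bcl2* 0.55 and *Mcl1* 0.028 in G1, and *Mcl1* 0.049 in S. From 48 h to 72 h after treatment, values per cell were -0.66 for *Bad*, -0.53 for *Bbc3*, -0.37 for *Bcl2l1*, -0.69 for *Bcl2l11*, -0.69 for *Bid*, -0.56 for *Mcl1* and -0.68 for *Pmaip1*, and in G1 *Bcl2l1* was -0.66 and *Mcl1* -0.075. The interaction per cell was -0.59 for *Bad*, -0.61 for *Bak1*, -0.61 for *Bbc3*, -0.66 for *Bid*, -0.51 for *Mcl1* and -0.55 for *Pmaip1*, and for *Mcl1* it was -0.028 in G1 and -0.021 in S. In the sort, *Bad* was -0.43 and *Pmaip1* -0.48 per cell, *Bak1* 0.18 in G1, *Bad* -0.40 and *Bid* 0.20 in G2M, and *Bad* -0.14 with CPM not scaled by TMM. Depth limits *Bcl2* most, with 895 UMIs over 39 mice.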
